A study of Mus musculus with 8 samples.

Results

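Gene levels at day 6 of reprogramming were compared with those at day 3, to describe which genes and processes first moved in this interval and which genes turned back from their direction at day 3. The cells were C57BL/6 mouse embryonic fibroblasts (MEFs) from tetO-OSKM fetuses of embryonic day 13.5, in which doxycycline switches on the reprogramming factors Oct4 (the gene Pou5f1), Sox2, Klf4 and Myc. Per the labels' protocols, induction was with 2 ug/ml doxycycline in a medium with 15% serum replacement, N-2 supplement, 1000 U/mL LIF and the GSK3 inhibitor CHIR99021 at 3 uM, and the day 3 and day 6 cultures shared all of these. RNA came from whole cultures, 1 library each for MEFs before induction (day 0), day 3, day 6 and fully reprogrammed induced pluripotent stem cells (iPSCs). The sources used here do not give the medium of the MEFs before induction or of the iPSCs, nor whether the libraries came from the same culture.

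Values are FPKM (fragments scaled to the length of the gene and to the size of the library), and differences are of log2(FPKM + 1). Of 17922 rows in the table, 11817 had at least 1 FPKM at day 3 or at day 6 and were compared, and 6105 were below that level on both days. The rule of size called a gene higher or lower where day 6 minus day 3 was at least 1 in either direction. It was said to have first moved in the interval when it passed this rule and lay within 0.5 of MEFs at day 3. It was said to have reversed when it moved by at least 0.5 in one direction by day 3 and by at least 0.5 in the other by day 6. The 1 added to each value shrinks differences of rows under 1 FPKM. Such a row can count as first moved although it had changed in proportion by day 3. With 1 library per stage no difference could be tested, and the counts describe these libraries. The day 3 library enters both differences, so a gene that is high or low in that library alone counts as a reversal. The lowest values put the depth of the day 3 library at about 0.67 of that of MEFs and the day 6 library at about 1.61 of day 3. This estimate is rough, since only 16 of 920 and 55 of 895 low rows stood at these most frequent ratios.

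In the first days of reprogramming, a fibroblast culture is known to lose mesenchymal and contractile features, to gain epithelial ones, and to divide faster, while the pluripotency network of resident genes switches on later and in few cells. NRF2 is a transcription factor that is released from its inhibitor KEAP1 by oxidants and electrophiles and then activates glutathione, thioredoxin and quinone-reducing enzymes. The aryl hydrocarbon receptor is a ligand-activated factor that shares some of those targets. SRF, with its actin-sensing partners, drives the genes of the contractile cytoskeleton, and SREBP2 drives cholesterol synthesis when sterols are low.

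The induced genes separated the stages in order for Pou5f1 and Sox2. Pou5f1 stood at 0.226, 3.03, 8.56 and 740 FPKM in the libraries of MEFs, day 3, day 6 and iPSCs, and was 1.25 higher at day 6 than at day 3. Unless said otherwise, sets of 3 or 4 values below keep this order. Sox2 stood at 0.411, 1.19, 2.03 and 88.7 FPKM. Klf4 (10.6, 13.7, 12.1 and 17.3) and Myc (16.8, 21.2, 22.8 and 1.83) differed little over the first 3 libraries. The table does not separate reads of the induced copies from those of the resident genes. Of 35 other pluripotency genes in the table, 9 were compared, and the only one past the rule was Klf2, which was lower. Of 30 fibroblast matrix and surface genes compared, none passed the rule and the median difference was -0.01, with 15 above day 3 and 15 below. The day 6 culture thus still carried the fibroblast genes its label implies, among them the collagen gene Col3a1 at 553, 491 and 609 FPKM. A bulk value cannot tell fewer cells of a type from less RNA per cell, here or in any group below.

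By the rule, 54 rows (0.457% of those compared) were higher at day 6 and 47 (0.398%) were lower. At differences of at least 0.5, 309 rows (2.61%) were higher and 442 (3.74%) lower, and 11066 rows (93.6%) lay within 0.5. The median difference over all compared rows was -0.012. Of these rows, 5600 (47.4%) lay above day 3, the share to set beside the list counts at day 6 below. No such share was taken for day 3 against MEFs, where the median over all compared rows was -0.013. Of the 54 higher rows, 37 first moved in this interval, 15 had already been higher at day 3 and 2 had been lower. Of the 47 lower rows, 30 first moved in the interval, 1 continued (Myh11, smooth muscle myosin heavy chain) and 16 had been higher at day 3. When libraries were scaled to the same upper quartile, which moves the median of all rows to 0.057, the first movers became 48 higher and 25 lower. Low rows passed the rule more often than strong ones. Among rows with a mean under 2 FPKM 2.24% passed, against 0.6% of those at 10 to 100 FPKM, and 22 of the 54 higher and 12 of the 47 lower rows were under 5 FPKM on both days.

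**Figure D1:**
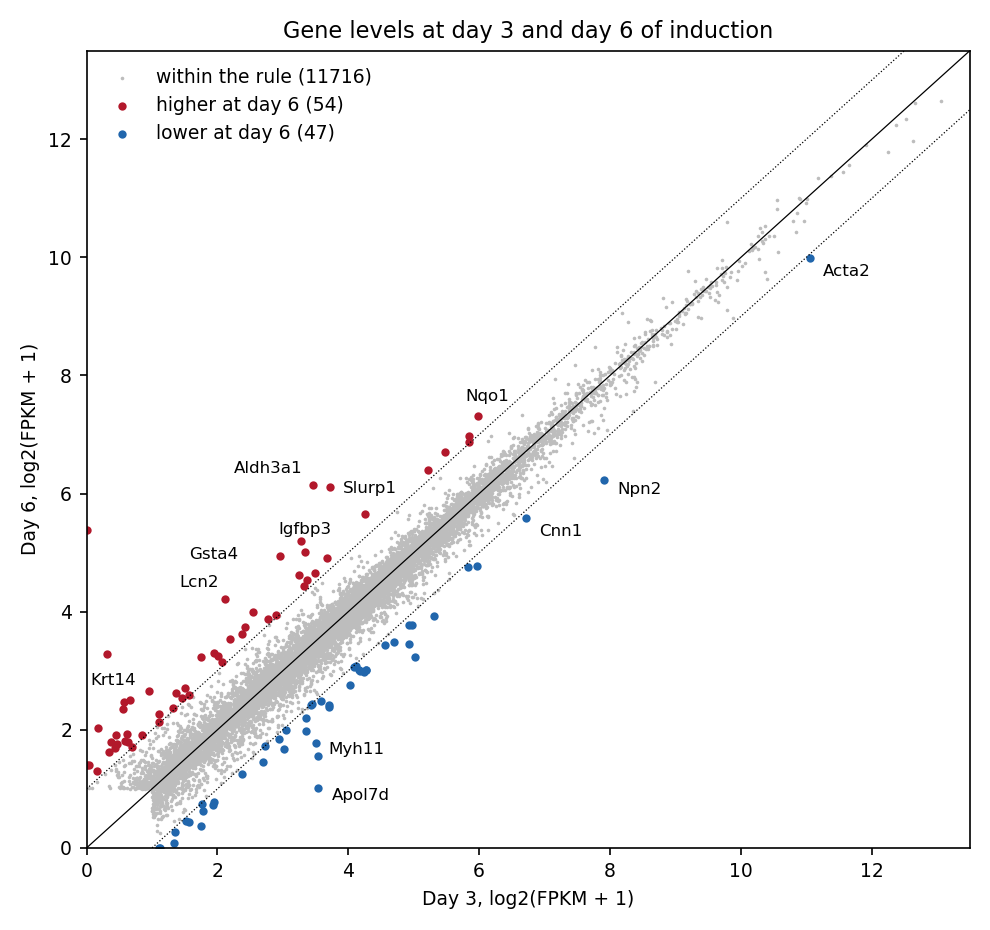
Each point is 1 of the 11817 compared rows, placed by its log2(FPKM + 1) at day 3 (horizontal) and day 6 (vertical). The solid line marks equal values and the dotted lines a difference of 1 either way. The 54 higher rows (red) and 47 lower rows (blue) lie outside a narrow band that holds the rest. The unlabelled red points on the vertical axis are Gm17631 and Gm10217, both listed at 0 at day 3.

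Of the 54 higher rows, 44 had their highest value of the 4 libraries at day 6. Selection by a high day 6 value favours this count, and no share over all compared rows was taken. Between iPSCs and MEFs, 14.6% of the compared rows were higher and 27.2% lower by at least 1. By that measure the 54 genes higher at day 6 held 9 that were higher in iPSCs, 19 that were lower and 26 within 1. The 47 lower genes held 5 that were higher in iPSCs, 26 that were lower and 16 within 1. At the edge of the rule, Stab1, a scavenger receptor, was just inside at 1.02 and Cp, the copper carrier ceruloplasmin, just outside at 0.99. On the lower side, Efhd1, a mitochondrial calcium-binding protein, was just inside (8.27, 9.89 and 4.43 FPKM), and As3mt, an arsenic methyltransferase, just outside (5.18, 4.75 and 1.88), with differences that both round to -1.

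**Figure D2:**
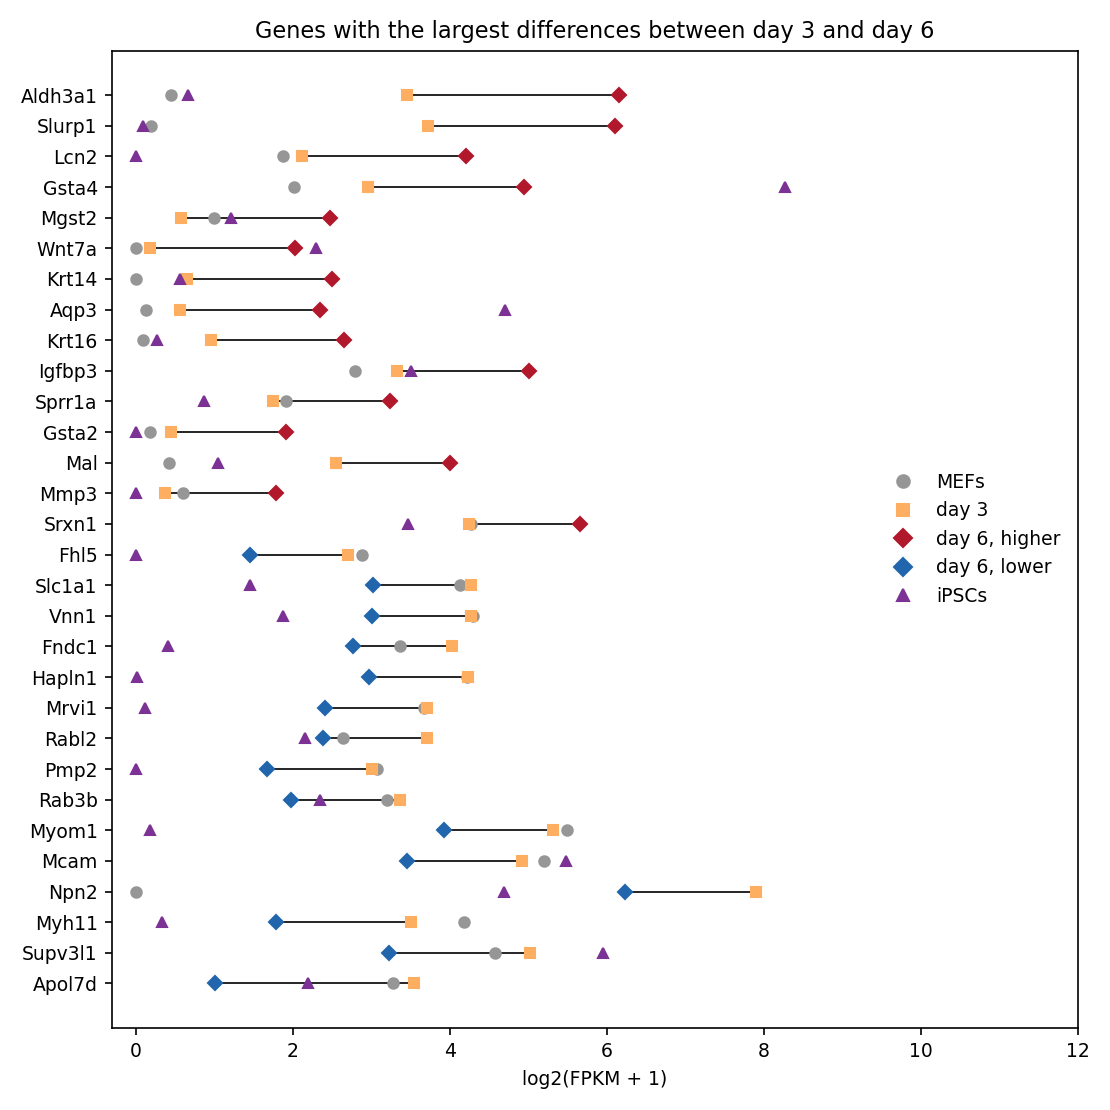
The 15 named genes with the largest positive and the 15 with the largest negative difference between day 3 and day 6, with their log2(FPKM + 1) in each of the 4 libraries. A line joins day 3 to day 6. For most of the higher genes day 6 lies right of MEFs, day 3 and iPSCs, and Gsta4, Aqp3 and Wnt7a are the exceptions, with the iPSC value further right. Selection by a high day 6 value favours this pattern.

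Genes of oxidant defence formed the largest list that first moved upward. Of 34 NRF2 target and antioxidant genes compared, 3 were higher by the rule and none lower, 12 were higher by at least 0.5 and none lower by that much, and 27 lay above day 3. Their median was 0.01 at day 3 against MEFs and 0.32 at day 6 against day 3, beside -0.013 and -0.012 over all compared rows. Srxn1, sulfiredoxin, which repairs over-oxidised peroxiredoxins, stood at 18.2, 18.0 and 49.4 FPKM. Txnrd1, the cytosolic thioredoxin reductase, stood at 56.2, 56.3 and 117 FPKM. Both were level between MEFs and day 3 and were 1.41 and 1.04 higher by day 6. Nqo1, a quinone reductase, began earlier, with 41.2, 62.3 and 159 FPKM and a difference of 1.34. Below the rule, the subunits of glutamate-cysteine ligase, the first enzyme of glutathione synthesis, both stood higher. Gclm was at 12.3, 18.6 and 27.8 FPKM and Gclc at 9.67, 10.5 and 16.4. Esd, an esterase that acts on a glutathione adduct, was at 273, 291 and 534 FPKM (0.87), and Prdx1, an abundant peroxiredoxin, at 448, 447 and 637 (0.51). The cystine importer Slc7a11 stood at 5.66, 5.78 and 9.41 FPKM. The ferritin chains Fth1 and Ftl1, which store iron, stood 0.57 and 0.42 higher, and haem oxygenase Hmox1 0.50. Of the glutathione peroxidases compared, Gpx1, Gpx3, Gpx4 and Gpx7 had differences of -0.20, -0.12, -0.25 and -0.22, and Gpx8 of 0.11. The superoxide dismutases Sod1 and Sod2 were level at -0.01 and 0.01.

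The promoters of 2 of these genes are shown because they hold the antioxidant response element core, TGACNNNGC on either strand, the motif to which NRF2 is known to bind. They are the genes of the list with the largest differences among those holding it in the 250 bases before the start. Each is 120 bases from RefSeq on GRCm38.p6, read 5′ to 3′ on the strand of the gene, with the core in capitals, which in both lies on the opposite strand. Txnrd1 is chr10:82859058-82859177, plus strand, and Gclm is chr3:122245367-122245486, plus strand.
Txnrd1: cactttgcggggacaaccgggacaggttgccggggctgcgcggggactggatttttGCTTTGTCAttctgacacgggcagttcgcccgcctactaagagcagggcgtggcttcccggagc
Gclm: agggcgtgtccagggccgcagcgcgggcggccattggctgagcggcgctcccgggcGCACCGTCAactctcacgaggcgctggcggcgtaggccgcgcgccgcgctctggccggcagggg
The core was found in 6 of 29 promoters matched for the list (20.7%), in 14.1% of 8395 compared genes matched and in 11.5% of all 27025 genes in the promoter table. Among the 54 higher genes 34 were matched, of which 4 (11.8%) held it. A match is a stretch of letters and was not tested as a binding site.

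Glutathione transferases, which couple glutathione to reactive compounds, had 5 of 22 compared members higher by the rule, none lower, and 20 above day 3. Their median was 0.02 at day 3 and 0.17 at day 6. Of the 5, Gsta1, Gsta2, Gsta3 and Mgst2 were under 1 FPKM at day 3 and entered the comparison through day 6 only. Gsta4, which acts on products of lipid peroxidation, stood at 3.04, 6.78, 29.7 and 308 FPKM. Mgst2, a microsomal member, stood at 0.988, 0.489, 4.56 and 1.32 FPKM. Gsta4 thus continued from day 3 and was highest in iPSCs, while Mgst2 first moved after day 3. Gsta1, Gsta2 and Gsta3 reached only 2.51, 2.77 and 1.46 FPKM at day 6. Gsta1, Gsta2 and the predicted gene Gm3776 are near-identical copies, so their reads may be shared and how they divide is uncertain. Mgst1, at 51.5, 41.2 and 75.5 FPKM, was 0.86 higher, and the abundant Gstm2, Gstm5 and Gsto1 moved by no more than 0.19.

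The aldehyde dehydrogenase Aldh3a1 had the largest difference of any named gene. It stood at 0.360, 9.97, 70.2 and 0.592 FPKM, 7.04-fold higher at day 6 than at day 3, and so was below 1 FPKM at both ends of the course. The other 13 members of its family that were compared stayed within the rule, from Aldh1a1, a retinaldehyde dehydrogenase, at -0.72 (127, 106 and 63.9 FPKM) to Aldh1a7 at 0.53.

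Aldh3a1 is also a known target of the aryl hydrocarbon receptor, and 6 of 13 genes of that list were higher by the rule with none lower. The receptor gene Ahr stood at 6.65, 8.48, 23.5 and 2.13 FPKM and was 1.37 higher at day 6. The members past the rule were Ahr, Aldh3a1, Nqo1, Gsta1, Ugt1a6a and Ugt1a7c, several of which are NRF2 targets as well. Gsta1 and Ugt1a7c reached 1 FPKM at day 6 only. Among other genes of the list, Cyp1a1 stayed under 1 FPKM in MEFs, day 3 and day 6, and Cyp1b1, a cytochrome P450, stood at 175, 191 and 215 FPKM (0.17). Both feedback genes were lower. Ahrr, the repressor of the receptor, was at 4.81, 4.81 and 2.40 FPKM (-0.77), and Tiparp, an ADP-ribosyltransferase induced by it, at 25.4, 30.04 and 21.0 (-0.50). The rows of the Ugt1a locus, which encode glucuronosyltransferases from alternative first exons, overlap one another, so Ugt1a6a (1.03, 1.96 and 5.00 FPKM), Ugt1a6b (0.556, 1.16 and 3.39) and Ugt1a7c (0.586, 0.554 and 2.46) may share reads.

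Ahrr and Tiparp are the genes of this list with the largest differences in size among those whose upstream 250 bases hold the receptor core GCGTG on either strand. They are shown as feedback genes of the receptor, both of them lower at day 6. The core is in capitals, and in Tiparp it lies on the opposite strand. Ahrr is chr13:74292332-74292451, minus strand, and Tiparp is chr3:65528219-65528338, plus strand.
Ahrr: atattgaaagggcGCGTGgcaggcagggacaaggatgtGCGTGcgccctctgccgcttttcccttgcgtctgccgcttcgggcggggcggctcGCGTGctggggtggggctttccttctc
Tiparp: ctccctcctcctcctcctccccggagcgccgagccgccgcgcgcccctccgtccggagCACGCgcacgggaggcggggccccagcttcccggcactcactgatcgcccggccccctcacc
This short core was found in 4 of 9 promoters matched for the list, in 51.3% of the compared genes and in 30.9% of all genes in the table.

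**Figure D3:**
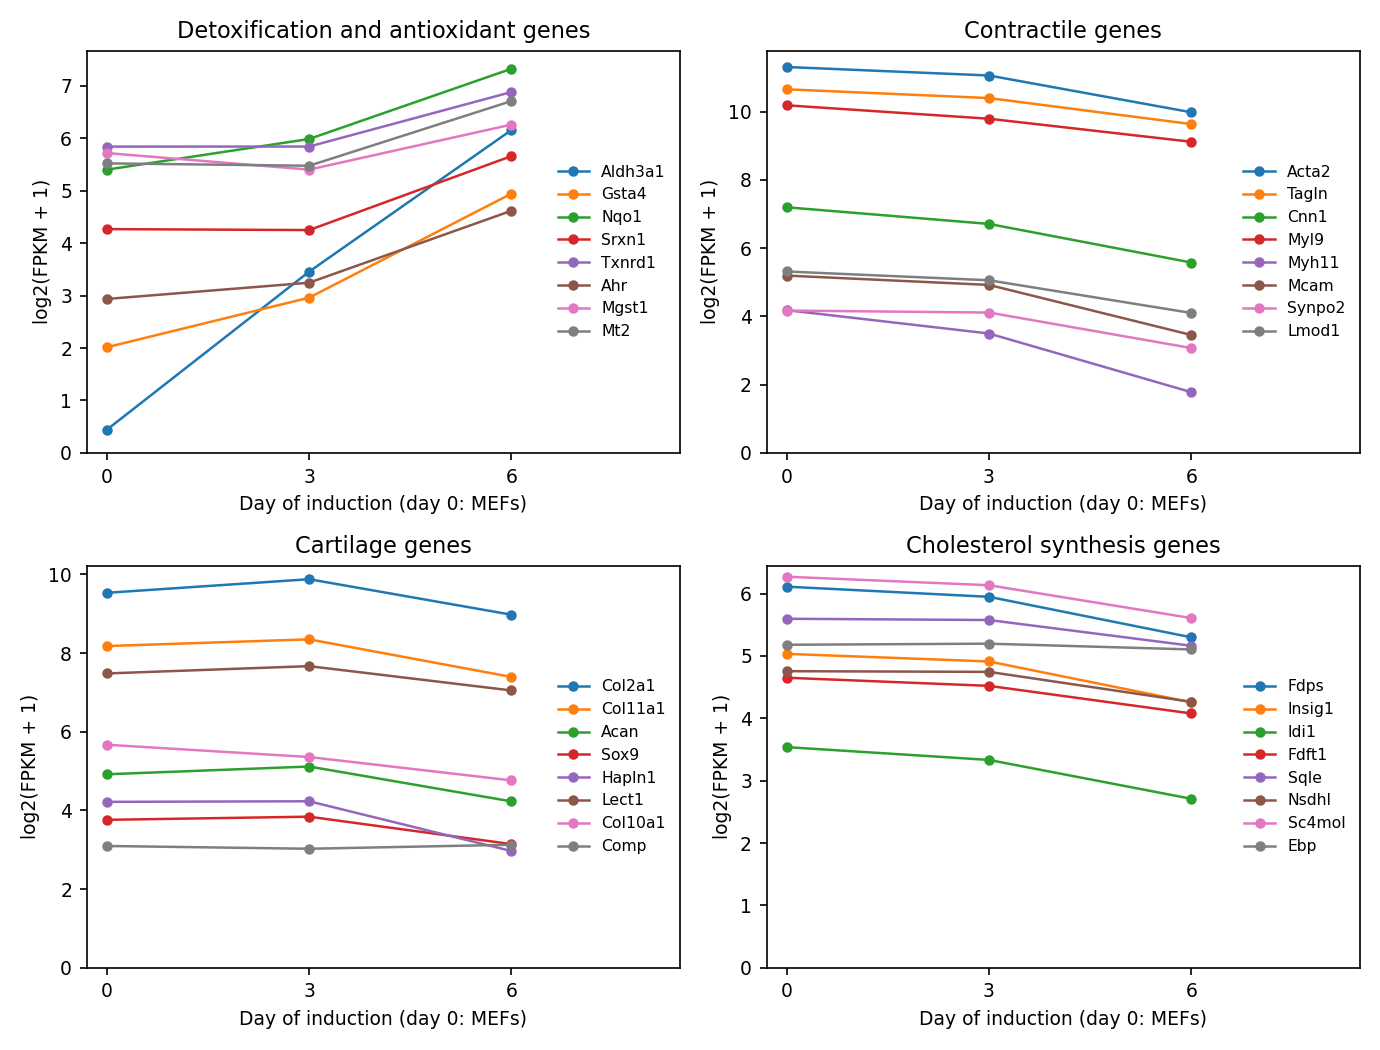
Levels of 8 genes from each of 4 groups, as log2(FPKM + 1) (vertical) against day of induction (horizontal, day 0 being MEFs), with 1 library per point. Most of the detoxification genes climb more after day 3 than before it. The contractile genes descend over both steps, except Synpo2, which is nearly level to day 3. Most of the cartilage and cholesterol genes shown change little to day 3 and are lower at day 6, with Comp and Ebp nearly level.

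Some genes of stratified epithelium were higher, from low levels. Of 13 keratinocyte and cornified envelope genes compared, of 31 in the table, 5 were higher by the rule, with a median of 0.31 at day 3 and 0.41 at day 6. A member that is near 0 on both days does not pass the filter, and with no filter the median was 0.13. Slurp1, a secreted protein of the Ly6 family made by keratinocytes, stood at 0.143, 12.2, 67.9 and 0.0664 FPKM. The basal keratin Krt14 (0, 0.575 and 4.66 FPKM), the stress keratin Krt16 (0.0662, 0.939 and 5.27), the cornified envelope precursor Sprr1a (2.77, 2.36 and 8.43) and Krtdap (0, 0.271 and 2.08) were the others. Krt14, Krt16, Krtdap, Krt17, Sbsn and Trp63 entered the comparison through day 6 only. Sprr2k, another cornified envelope gene, ran the other way at 3.21, 3.79 and 1.81 FPKM (-0.77), and Sfn and Pkp1 were at -0.09 and -0.07. By the rule, Slurp1, Krt14 and Krt16 thus continued a course begun by day 3, while Sprr1a and Krtdap first moved after it. For Krtdap, under 1 FPKM at day 3, that reading depends on the 1 added to each value. Of the 27 keratin genes listed, 10 were compared. The keratins higher by the rule were Krt14, Krt16, Krt13 (0, 0.788 and 2.76 FPKM) and the simple epithelial keratin Krt8 (0.0263, 0.356 and 2.22, and 110 in iPSCs). These 4 keratins were under 1 FPKM at day 3 and reached the filter through day 6, so their share of the compared keratins is no measure of the family. Krt7, another simple epithelial keratin, ran the other way at 7.37, 6.09 and 3.42 FPKM. The keratin median of 0.63 was 0.02 with no filter, 0.23 with a pseudocount of 5 and 0.16 without rows listed at 0 in a library.

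Several defining keratinocyte genes were near 0. Krt1 stayed at or under 0.0388 FPKM and Dsg3, a desmosomal cadherin, at or under 0.0916 in the first 3 libraries, and Trp63, the master regulator of the lineage, stood at 0.816, 0.713 and 1.05 FPKM. The summed level of the list was 82.5, 97.9 and 186 FPKM, of which Slurp1 supplied 0.143, 12.2 and 67.9. Of 10 simple epithelial genes compared, of 30 in the table, only Krt8 passed the rule, 6 lay below day 3 and the median was -0.14. With no filter on low values that median was 0.03, so its sign depended on the filter. Spint2, a protease inhibitor, was at -0.58, Pkp2, a desmosomal plakophilin, at -0.45 and Cdh3, P-cadherin, at -0.33. Cdh1, E-cadherin, stood at 0.0818, 0.431 and 1.14 FPKM. The hemidesmosome integrins Itgb4 (0.421, 1.35 and 3.28 FPKM) and Itga6 (5.86, 7.72 and 10.8) were 0.87 and 0.43 higher at day 6, while 14 of the 18 integrins compared lay below day 3 and the muscle integrin Itga7 was at -0.91. Other genes with a role in epithelia that first moved in this interval by the rule were Aqp3, a water and glycerol channel (0.0919, 0.473 and 4.11 FPKM, and 24.9 in iPSCs), and Wnt7a (0, 0.129 and 3.07, and 3.89 in iPSCs). Both were under 1 FPKM at day 3, where that reading depends on the 1 added to each value. Mal, a membrane protein of apical transport, continued at 0.342, 4.85 and 15.0 FPKM.

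Of the 63 lists with at least 5 compared members, 7 first moved in this interval by their medians, 4 continued, 4 reversed and 48 met none of these descriptions. The lists first moving upward were antioxidant, inflammation, complement and apolipoprotein L genes, and those first moving downward were cartilage, cholesterol and striated muscle genes. The apolipoprotein L list had 5 members compared. Its median of 0.33 was 0.15 with a pseudocount of 5 and 0.10 with no filter, its strongest member Apol7d was lower by the rule, and its summed level was 14.6 FPKM at day 3 and 7.22 at day 6. The striated muscle median of -0.36, over 6 members, was -0.21 with a pseudocount of 5 and 0 with no filter. Those that continued were contractile, aryl hydrocarbon receptor, keratinocyte and keratin genes, of which the keratinocyte and keratin lists share members.

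Inflammatory and complement genes, by their medians, first moved after day 3. Of 22 chemokine and inflammation genes compared, 5 were higher by the rule and none lower, with medians of -0.10 at day 3 and 0.35 at day 6. With no filter on low values, the latter median was 0.10. The list does not hold every chemokine, and Ccl17, which is outside it and attracts T cells, was lower by the rule at 19.6, 17.0 and 7.04 FPKM. Lcn2, the iron-sequestering lipocalin, stood at 2.66, 3.33 and 17.5 FPKM and was listed at 0 in iPSCs. Vcam1, an adhesion molecule for leukocytes, stood at 3.34, 2.85 and 8.89 FPKM, Il6 at 1.77, 1.56 and 5.18, Cxcl5 at 1.15, 1.74 and 4.84, and Ptges, the inducible prostaglandin E synthase, at 6.90, 6.44 and 14.3. All 5 lay within 0.5 of MEFs at day 3. The group did not move as a whole. Tnfrsf11b, osteoprotegerin, stood at 266, 215 and 130 FPKM (-0.72), Tnfaip3, a feedback inhibitor of NF-kB, at 4.80, 6.15 and 3.44 (-0.69), and Ptgs2, cyclooxygenase 2, at 331, 331 and 251 (-0.40). Of 13 complement genes none passed the rule, 3 were higher by at least 0.5, and the median was 0.40. That median was 0.13 with a pseudocount of 5 and 0.11 with no filter. Cd55, a membrane protein that breaks up complement convertases, stood at 1.27, 3.01 and 6.08 FPKM (0.82). Unlike the list median, Cd55 had thus already been higher at day 3. The serpins Serpinb1a, an inhibitor of neutrophil proteases, and Serpina3n stood at 5.88, 5.82 and 13.7 and at 5.20, 5.92 and 12.7 FPKM.

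The motif of AP-1, the family of Fos and Jun factors, was found in 10 of the 34 promoters matched among the 54 higher genes (29.4%). It was found in 2 of 28 matched among the 47 lower genes (7.14%), in 5.44% of compared genes and in 7.82% of all genes in the table. The motif searched was TGANTCA, which reads the same on both strands. The 10 genes were Efemp1, Il6, Mt2, Srxn1, Mmp3, Krt13, Sprr1a, Ugt1a6a, Krtdap and Mgst2, and 4 of them, chosen after their values were seen, are shown with the motif in capitals. Mgst2 is chr3:51661059-51661178, plus strand, Sprr1a is chr3:92485935-92486054, minus strand, Mmp3 is chr9:7445702-7445821, plus strand, and Srxn1 is chr2:152105404-152105523, plus strand.
Mgst2: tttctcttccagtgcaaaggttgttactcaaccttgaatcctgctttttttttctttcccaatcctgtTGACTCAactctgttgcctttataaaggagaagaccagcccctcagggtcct
Sprr1a: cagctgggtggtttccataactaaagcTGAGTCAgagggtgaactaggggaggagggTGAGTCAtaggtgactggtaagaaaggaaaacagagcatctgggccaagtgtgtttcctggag
Mmp3: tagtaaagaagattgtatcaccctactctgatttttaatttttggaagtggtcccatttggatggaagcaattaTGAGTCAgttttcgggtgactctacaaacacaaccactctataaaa
Srxn1: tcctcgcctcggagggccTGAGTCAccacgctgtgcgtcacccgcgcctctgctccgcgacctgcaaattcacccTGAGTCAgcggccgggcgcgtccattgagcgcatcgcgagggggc
Sprr1a and Srxn1 hold the motif at 2 places and Mgst2 and Mmp3 at 1. Mmp3, stromelysin, stood at 0.523, 0.290 and 2.45 FPKM. The AP-1 genes themselves went in different directions, with Fosb (7.17, 7.25 and 2.99 FPKM) lower by the rule, Fos (122, 130 and 72.5) at -0.83, Jun at 0.09, Jund at 0.03 and Fosl1 (7.48, 11.02 and 14.9) at 0.41. Whether these factors act at the shown promoters was not tested.

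Further genes that first moved upward encode secreted and metal-handling proteins. Ptn, the growth factor pleiotrophin, stood at 4.48, 4.36 and 12.4 FPKM, Angptl4, an inhibitor of lipoprotein lipase, at 3.95, 4.19 and 11.3, and Tgfbi, a matrix protein, at 8.60, 8.97 and 20.7. Mt2, a metallothionein that binds zinc and copper, stood at 44.9, 43.4 and 103 FPKM, and its neighbour in the family, Mt1, at 168, 142 and 244. Blvrb, which reduces biliverdin and flavins, stood at 15.2, 11.8 and 29.0 FPKM. Igfbp3, which binds insulin-like growth factors, continued from day 3 at 5.94, 9.07 and 31.3 FPKM and was the only 1 of 17 genes of the insulin-like growth factor list past the rule. Ly6a, the surface protein Sca-1, continued as well, at 39.4, 56.2 and 125 FPKM. Some rows in the count are of uncertain reading. Hspa14 stood at 0.0149, 0.0222 and 1.63 FPKM and the predicted gene Gm17631 was listed at 0 in MEFs, day 3 and iPSCs but at 40.6 at day 6.

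**Figure D4:**
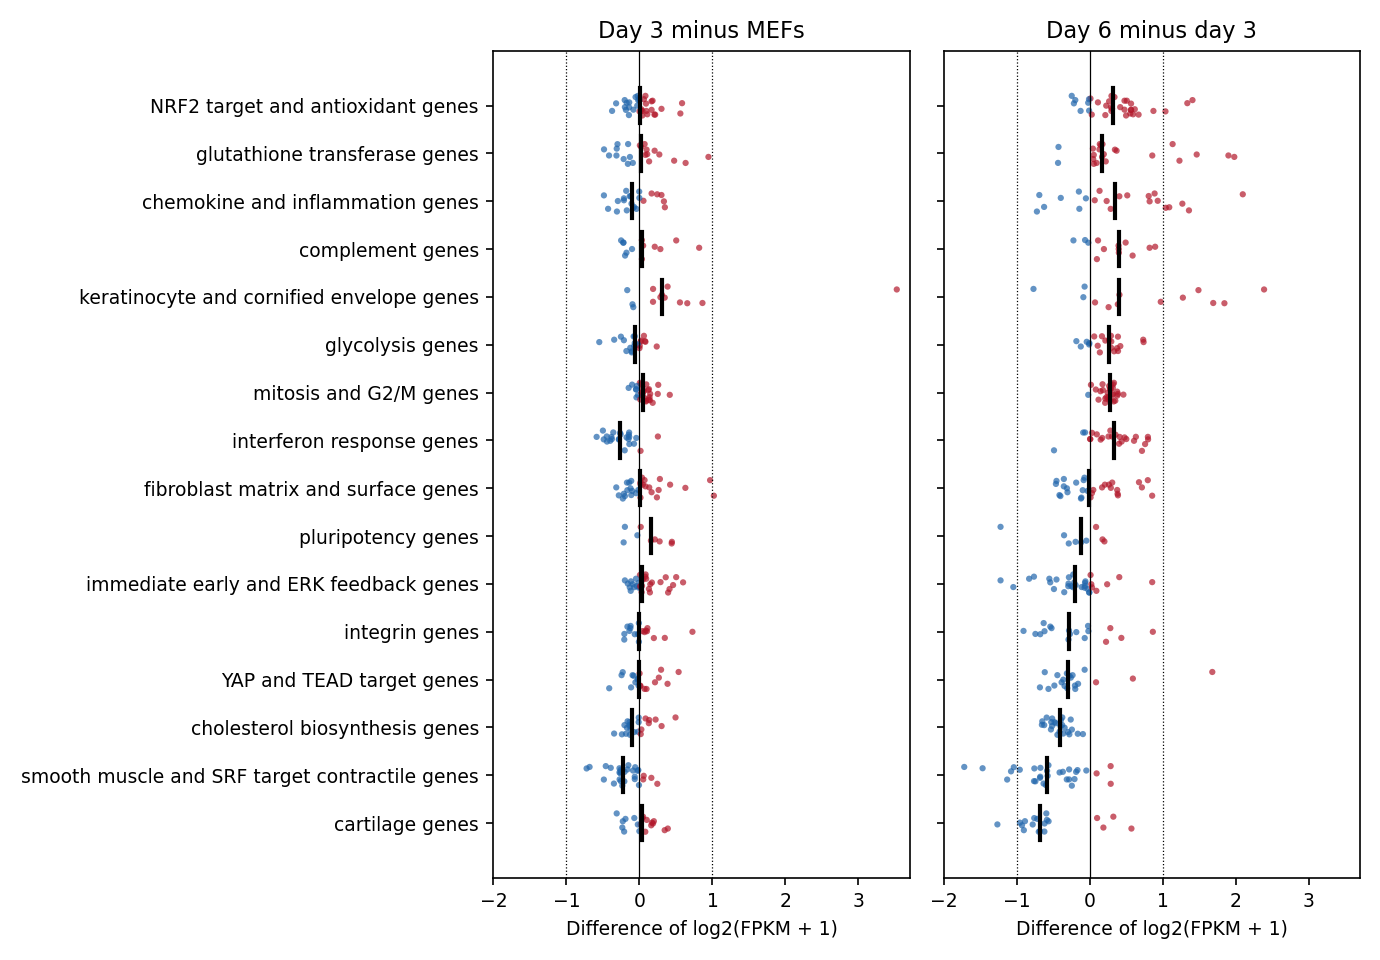
Differences of log2(FPKM + 1) for the compared members of 16 gene lists, day 3 minus MEFs on the left and day 6 minus day 3 on the right, with 1 point per gene and a black bar at the list's median. Antioxidant, inflammation and complement genes have medians near 0 on the left and right of 0 on the right, cholesterol and cartilage genes near 0 and then left of it, and contractile genes left of 0 in both.

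The contractile genes were the largest group past the rule on the lower side. Of 30 smooth muscle and SRF target genes compared, 5 were lower by the rule and none higher, 17 were lower by at least 0.5, and 27 lay below day 3. Their median was -0.22 at day 3 against MEFs and -0.58 at day 6 against day 3. Acta2, smooth muscle actin, stood at 2534, 2132, 1010 and 87.2 FPKM. Cnn1, calponin, stood at 146, 104, 46.8 and 3.62 FPKM, and Myh11 at 17.2, 10.3, 2.44 and 0.256. These 3 descended at each step. Mcam, a surface glycoprotein of pericytes and muscle, stood at 35.7, 29.3, 9.98 and 43.8 FPKM, so it was lowest at day 6. Synpo2, an actin-binding protein of muscle, was level to day 3 and then lower, at 17.0, 16.3 and 7.42 FPKM. Tagln, SM22, and Myl9, the regulatory light chain of myosin, were at -0.76 and -0.67, while the general cytoskeletal members Flna, Tpm1 and Tpm4 were at -0.17, -0.19 and -0.05. Rgs5 and Des, which mark pericytes and muscle, were 0.29 higher. The summed level of the list was 13099, 11263 and 8066 FPKM. Actin genes are close paralogs, so some reads of Acta1 and Acta2 may be shared.

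Myl9 and Vcl are the genes of this list with the largest differences among those whose upstream 250 bases hold a CArG box, the element to which SRF is known to bind. The element is in capitals and reads the same class of letters on both strands. Myl9 is chr2:156775248-156775367, plus strand, and Vcl, which encodes the focal adhesion protein vinculin, is chr14:20929148-20929267, plus strand.
Myl9: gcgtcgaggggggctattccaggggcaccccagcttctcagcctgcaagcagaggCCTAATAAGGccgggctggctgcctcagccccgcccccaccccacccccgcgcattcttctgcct
Vcl: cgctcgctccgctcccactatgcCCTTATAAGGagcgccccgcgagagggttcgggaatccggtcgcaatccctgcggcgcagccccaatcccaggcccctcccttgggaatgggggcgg
A CArG box was found in 5 of 25 matched promoters of the list (20%), in 1.49% of compared genes and in 1.62% of all genes in the table. SRF target genes are partly known through this element, so the share is a description of the list. Vcl stood at 338, 336 and 221 FPKM and Srf itself at 19.5, 18.6 and 15.9.

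Of 27 striated muscle genes in the table, 6 were compared and 2 of these were lower by the rule. Myom1, a protein of the sarcomere M-line, stood at 44.1, 38.8 and 14.3 FPKM, and Acta1, skeletal actin, at 38.3, 30.5 and 12.7. Other genes expressed in muscle that were lower are Dmpk, a kinase of muscle (71.8, 61.5 and 26.5 FPKM), Mrvi1, which acts in smooth muscle relaxation (11.7, 12.1 and 4.33), and Fhl5 (6.34, 5.49 and 1.74). Genes targeted by YAP and TEAD, which respond to cell tension and density, lay below day 3 in 17 of 20 compared, with a median of -0.29. Among them Ankrd1 stood at 56.2, 47.8 and 30.8 FPKM, Lats2 at 119, 110 and 68.3, and Ctgf at 1531, 1518 and 1085. Igfbp3 was the exception past the rule, on the higher side. The labels give no cell density at harvest, and its part in these differences was not tested.

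Cartilage genes had the lowest median of any list and first moved in this interval. Of 19 compared, 1 was lower by the rule, 15 were lower by at least 0.5 and 1 was higher by that much. The median was 0.04 at day 3 and -0.68 at day 6. Hapln1, which links aggrecan to hyaluronan, stood at 17.6, 17.8 and 6.84 FPKM. Col2a1, the main collagen of cartilage, stood at 740, 941 and 503 FPKM, Col11a1, which forms fibrils with it, at 289, 326 and 167, and Lect1, the antiangiogenic chondromodulin, at 178, 203 and 132. Sox9, the transcription factor that drives them, stood at 12.6, 13.3 and 7.85 FPKM. Each of these 5 was at or above its MEF level at day 3 and below it at day 6. The collagen genes Col9a1, Col9a2 and Col9a3 were at -0.68, -0.78 and -0.93. Comp, Sox5, Matn4 and Prg4 were above day 3, at 0.10, 0.19, 0.32 and 0.57, and Prg4, lubricin, marks the joint surface. The summed level of the list was 1428, 1680 and 931 FPKM. The MEF culture therefore already held RNA of cartilage genes, and whether the difference reflects the cells that carried it was not tested. Spp1, osteopontin, the strongest gene of the bone list, stood at 7598, 6325 and 4008 FPKM, while the osteoblast genes Runx2 and Col1a1 were at 0.14 and 0.21.

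Every one of the 24 genes of cholesterol synthesis and uptake that were compared was lower at day 6 than at day 3, with none past the rule and 8 lower by at least 0.5. The median was -0.10 at day 3 and -0.41 at day 6. Over the alternative settings the latter ranged from -0.43 to -0.33. Insig1, a sterol-regulated brake on SREBP, stood at 31.8, 29.1, 18.1 and 85.9 FPKM. Fdps, farnesyl diphosphate synthase, stood at 68.1, 60.8, 38.4 and 129 FPKM, and Idi1, the isomerase before it, at 10.6, 9.08, 5.55 and 12.9. These 3 were lowest at day 6 and highest in iPSCs. Nsdhl, a sterol dehydrogenase of the late pathway, stood 0.48 lower at day 6 (25.8 and 18.2 FPKM at day 3 and day 6), and Sqle, squalene epoxidase, was at 47.4, 46.7 and 34.9. Srebf2, which encodes SREBP2, was at -0.26 and Ebp at -0.09, the smallest difference of the list. Hmgcs1, which belongs to the pathway, had under 0.1 FPKM in the first 3 libraries and was not compared. Genes of fatty acid synthesis moved less, with none of 15 at 0.5 and a median of -0.16. The desaturases Scd1 and Scd2 were at -0.49 and -0.47. The sterol regulatory element TCACNCCAC, on either strand, was in none of the 15 promoters matched for the cholesterol list and in 1.22% of all genes in the table, so no promoter of the list is shown.

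A list of immediate early genes, which growth factors and stress switch on within minutes, and of feedback genes of the ERK pathway lay below day 3 in 25 of 32 compared, with a median of -0.20. At day 3, 21 of the 32 had lain above MEFs. Klf2 (28.9, 25.1 and 10.2 FPKM) and Fosb were lower by the rule and none was higher, and Nr4a1 was at -0.76 and Dusp1, a phosphatase that ends MAP kinase signals, at -0.55. Klf10 stood apart at 8.36, 10.4 and 19.7 FPKM (0.86). Outside these groups, the largest negative differences of named genes were those of Apol7d, of the apolipoprotein L family, at 8.65, 10.6 and 1.02 FPKM, and Supv3l1, at 22.9, 31.5, 8.39 and 60.7. Supv3l1 encodes a helicase that degrades RNA in mitochondria, and its level at day 6 was the lowest of the 4 libraries. Also first lower in this interval were Vnn1, a pantetheinase (18.7, 18.3 and 7.07 FPKM), Slc1a1, a glutamate transporter (16.5, 18.3 and 7.11), Wnt16 (32.6, 29.6 and 12.7), Pmp2, a fatty acid-binding protein of myelin (7.39, 7.05 and 2.18), and Rab3b, a GTPase of secretory vesicles (8.16, 9.26 and 2.95). Maob, a monoamine oxidase (28.7, 22.6 and 9.84), and Rhod, a GTPase of endosomes and actin (64.7, 56.0 and 26.0), had also been lower at day 3 by less than 0.5.

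Most of the genes that reversed ended near the MEF level, an outcome that the rule favours. There were 53 rows up at day 3 and then down (0.449% of those compared) and 18 down and then up (0.152%). Scaled to the same upper quartile they were 46 and 27. Of the 53, 48 ended within 0.5 of MEFs at day 6, 3 were still displaced and 2 had gone past. All 18 of the others ended within 0.5. A row with both steps between 0.5 and 1 must end within 0.5 of MEFs, so these counts are partly set by the rule. Only 9 of the first and 2 of the second had both steps of at least 1. Levels were low, with a median at day 3 of 5.61 FPKM for the first set and 2.05 for the second, against 12.3 over all compared rows. Each reversal turns on the 1 library of day 3, which by the rough estimate from low values was the shallowest of the first 3.

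Genes up at day 3 and then down had varied roles. Zfp35, a zinc finger protein, stood at 3.53, 9.21 and 3.58 FPKM, and Zfp618, another, at 7.28, 17.2 and 6.95. A row of Zfp738 went from 2.34 to 9.81 and 4.35 FPKM, but the second row of the same symbol was level, at 11.1, 11.8 and 12.2. Counting each symbol at its highest row, which leaves out the row of Zfp738 that reversed, 2 of 310 zinc finger genes of this naming were past the rule, both lower, and their median was 0.03. Rere, a nuclear receptor corepressor, stood at 7.86, 13.8 and 7.17 FPKM, Dot1l, a methyltransferase of histone H3, at 5.51, 9.36 and 5.62, and Zmiz1 at 8.46, 17.4 and 11.6. Pou2f1, which encodes Oct1, stood at 3.61, 5.81 and 3.45 FPKM and Egr3 at 11.4, 17.8 and 11.9. Each of these regulators was named for passing the rule of reversal, so being highest at day 3 of the first 3 libraries follows from the selection. Dot1l, Zmiz1 and Pou2f1 were picked out after their values were seen. Cish, a STAT5-induced inhibitor of cytokine signalling, stood 0.90 higher at day 3 than in MEFs and 0.79 lower at day 6 than at day 3, at no more than 3.29 FPKM. Rabl2, a GTPase of cilia, at 5.25, 12.1 and 4.21, and Fndc1, at 9.33, 15.3 and 5.80, were 2 of the stronger rows. Lypd6, Ghrl, Dock3, Fam166a and Ccdc116 did not exceed 2.85 FPKM in MEFs, day 3 or day 6. Fam166a, Ccdc116 and Pou2f1 overlap other genes of the table (Tubb4b, Ydjc and Cd247), so their reads may be shared. Npn2 was listed at 0 in MEFs, at 239 at day 3, 74.3 at day 6 and 24.8 in iPSCs, and no fold is given for its first step.

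Genes down at day 3 and then up had smaller steps. Fggy, a carbohydrate kinase, stood at 28.0, 15.4 and 29.1 FPKM, and Tmem205 at 21.3, 14.3 and 22.8. Pdk1, the kinase that holds pyruvate out of mitochondria, stood at 11.3, 7.39, 13.01 and 124 FPKM. Casp4, the caspase that senses cytosolic lipopolysaccharide, stood at 7.59, 5.06 and 8.47, Serpina3g at 4.16, 2.56 and 5.04, and Ifit1 at 2.03, 1.02 and 2.50. These 3 are genes that interferon can induce. Podxl2, a sialomucin, stood at 12.3, 8.38 and 12.5 FPKM, Zfp691 at 5.69, 2.19 and 3.76, Fchsd1 at 6.58, 3.65 and 6.12 and Armc7 at 3.36, 1.91 and 3.83, while Atxn3 and Ctla2b stayed under 2 FPKM. Fchsd1, Armc7 and Tmem205 overlap other genes of the table, and with no strand setting stated their reads may be shared. The largest steps in this direction were of clone names. 2810453I06Rik stands on a pair of rows that mirror each other, at 9.06, 0.238 and 8.72 and at 2.69, 10.6 and 1.95 FPKM, and how reads were divided between them is uncertain. 2210012G02Rik stood at 29.4, 8.65 and 35.8 FPKM.

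**Figure D5:**
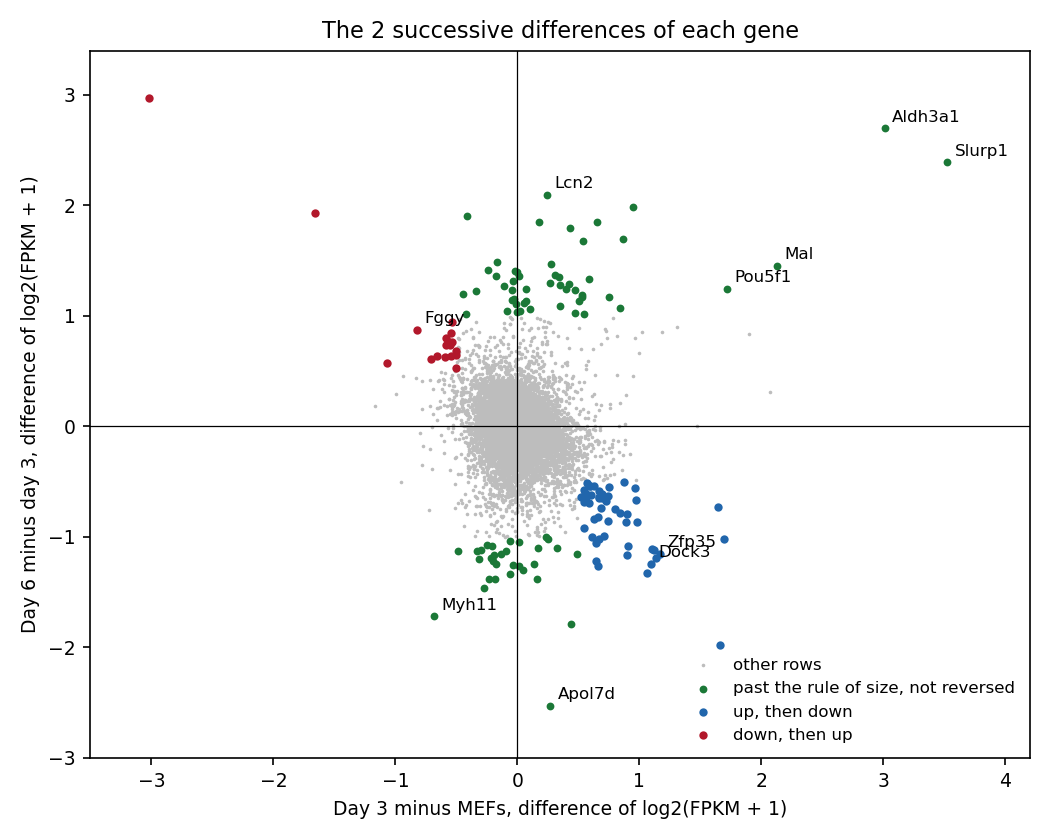
Each point is a compared row, with the difference of log2(FPKM + 1) from MEFs to day 3 (horizontal) and from day 3 to day 6 (vertical). The 53 rows up and then down (blue, lower right) and the 18 down and then up (red, upper left) are set apart from rows past the rule that did not reverse (green). Npn2, with a first difference of 7.91, and Gm17631, with a second of 5.38, lie outside the axes.

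Interferon response genes had the largest medians of the lists that turned back. Of 24 compared, 22 were below MEFs at day 3 and 21 were above day 3 at day 6, with medians of -0.26 and then 0.33. Over all compared rows these medians were -0.013 and -0.012, and no share below MEFs at day 3 was taken. No member of the list passed the rule and 7 were higher by at least 0.5 at day 6. Outside the list, the interferon-activated gene Ifi204 was higher by the rule, at 1.23, 1.16 and 3.79 FPKM. Usp18, a feedback inhibitor of the interferon receptor, stood at 1.51, 0.788 and 2.11 FPKM, Isg15, a ubiquitin-like modifier, at 1.52, 1.29 and 2.87, and Irf9, the DNA-binding part of the interferon complex, at 12.8, 9.16 and 12.8. Ifitm3, the strongest member, stood at 174, 175 and 289 FPKM and was level at day 3. With a pseudocount of 5 the second median was 0.14 and with a minimum of 5 FPKM 0.13, so the size was smaller where weakly expressed members counted less. Genes of MHC class I presentation went the same way, with 13 of 14 below MEFs at day 3 and 11 of 14 above day 3 at day 6, at medians of -0.26 and 0.15. H2-K1 stood at 55.3, 40.0 and 45.3 FPKM and Tap1, a peptide transporter, at 9.42, 8.46 and 13.7. Macrophage markers were also lower at day 3, but their later step was small and their list was not called reversing. Of 15 compared, 12 were below MEFs at day 3 and 10 above day 3 at day 6, with medians of -0.24 and 0.09, and the summed level of the list was 114, 87.9 and 97.2 FPKM. The macrophage marker Lyz2 stood at 52.9, 36.2 and 40.6 FPKM. The other lists called reversing were serpins, at -0.16 and 0.16, and the Ly6 family, at 0.21 and -0.18. The second median of the Ly6 family was 0.05 with no filter and 0.19 with a minimum of 5 FPKM. Its 9 compared members held 3 higher by the rule (Slurp1, Ly6c1 and Ly6a) and 1 lower (Lypd6), and its summed level was 338 FPKM at day 3 and 444 at day 6. The part of macrophages in the interferon, MHC and complement values was not tested.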

How the data were processed

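Long RNA of 4 libraries was used, 1 per stage, out of 8 samples, and the small RNA samples were not analysed here. The labels' protocols describe removal of ribosomal RNA and no selection for polyadenylated RNA. The submitters' processing notes name HISAT2, Cufflinks and build mm9, and the sources used here give no versions, strand setting or gene models. The values are FPKM as deposited by the authors, per the file headers, relative to each library's total, so depth is known only roughly. Of 11817 compared rows, 127 share their symbol entry with another row, among them rows that have no symbol. Differences of log2(FPKM + 1) were computed with Python 3.11.15, pandas 2.3.3 and numpy 2.4.6, and the rules were checked on simulated data. No test was possible with 1 library per group, and a difference is one of share of RNA.

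The comparison, the members and the 65 gene lists were chosen with earlier results of these data known. Named genes are list members, the 15 rows with the largest difference in each direction, the 12 reversals of each direction with the largest smaller step, and other genes as members of a count. A list was called first moving when its median was within 0.15 at day 3 and at least 0.3 in size at day 6. Promoters are RefSeq sequences on GRCm38.p6, matched by symbol for 8395 of 11734 compared symbols, and were not joined to mm9 coordinates. Some items are not reported here. A gene with several starts counted as holding a motif when any start did.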

Additional observations from a re-analysis of the deposited data

How the results depend on the processing

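The counts depended most on the pseudocount and on the size asked for. With a pseudocount of 0.1, 131 rows were higher and 126 lower (54 and 47 as reported), 65 and 87 first moved, and 103 and 77 reversed up and then down or down and then up. With a pseudocount of 5 the same counts were 16, 11, 9, 8, 12 and 3, and 3 lists in place of 11 had a median of at least 0.3 in size. With no filter 4 lists did. A minimum of 5 FPKM gave 32 higher rows, 18 first movers among them, 27 and 9 reversals, and 7 lists. Asking for differences 2 times as large left 5 higher and 1 lower rows, 2 and 1 first movers, and 9 and 2 reversals. Scaling to the same upper quartile gave 65 higher and 40 lower rows. All 54 higher rows and 40 of the 47 lower rows were shared with it. Of 561 list medians under the alternatives, 531 stayed close to the reported value, 30 moved and 0 of those of at least 0.3 in size changed sign. No paired analysis was possible because a single library stood for every stage, and for the same reason no replicate could be left out.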

Other observations

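Division and glycolysis genes moved by small steps in a common direction between day 3 and day 6. Of 30 mitosis and G2/M genes compared, 29 were higher at day 6, none past the rule, with medians of 0.06 at day 3 against MEFs and 0.28 at day 6 against day 3. Mki67, the proliferation marker, stood at 25.4, 28.2 and 37.2 FPKM in MEFs, day 3 and day 6, Top2a, a topoisomerase of dividing cells, at 60.8, 64.7 and 82.9, and Cenpf, a kinetochore protein, at 7.98, 8.24 and 11.7. Foxm1, a factor that drives these genes, had its step by day 3, at 9.12, 12.5 and 12.3 FPKM. Of 29 G1/S genes 25 were above day 3, with a median of 0.17, and the cyclin Ccnd1 stood at 82.4, 100.1 and 160 FPKM. Histone genes lay above day 3 in 49 of 60 compared, with a median of 0.23. Of 21 glycolysis genes 16 lay above day 3, with a median of 0.27 and none past the rule, among them Gapdh at 274, 274 and 356 FPKM and Pgk1 at 96.4, 91.6 and 123. Proteasome subunits lay above day 3 in 33 of 37, with a median of 0.13. Over all compared rows, 47.4% lay above day 3.

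Some other groups differed little between day 3 and day 6. Ribosomal protein genes lay below MEFs at day 3 in 76 of 82 compared, with a median of -0.14, and at -0.02 from day 3 to day 6. Transcripts encoded in mitochondria were 0.33 above MEFs at day 3 and 0.02 from day 3 to day 6. Of 17 mesenchymal transcription factors none passed the rule, while Prrx1 (34.8, 33.1 and 49.7 FPKM) and Twist2 (3.36, 3.15 and 4.92) stood higher at day 6. In 39 of the 63 lists with at least 5 compared members, every compared member stayed within the rule.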
